A study of Homo sapiens with 2 samples.

Results

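The cytosolic ribosomal protein genes encode the protein components of the small (40S) and large (60S) ribosomal subunits. They were taken from the gene files of both libraries by type (protein coding) and by name: RPS or RPL with a number and at most 1 closing letter, with RPSA, RPLP0, RPLP1, RPLP2 and FAU added and RPS27L and the RPS6 kinases left out. This gave 80 of 36953 gene rows, and 21102 of those rows were protein coding. The 80 rows held 32 genes of the 40S and 48 genes of the 60S subunit. Polyadenylated RNA was sequenced from 2 human colorectal cancer cell lines. MIP/5FU is a single clone selected from MIP101 by passage in rising 5-fluorouracil (5-FU), a pyrimidine analog used as a chemotherapy drug. Its IC50 for the drug was 10-fold higher, and it was maintained in 5 µM 5-FU. MIP101 is its drug-sensitive parent, from a liver metastasis. For RNA, both lines were cultured for about 48 hours in medium free of 5-FU and of antibiotics.

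Each ribosome holds 1 copy of most of these proteins, and cells make them in matched amounts from genes scattered over the chromosomes. Their mRNAs carry a terminal oligopyrimidine (TOP) tract, a cytidine followed by a run of pyrimidines at the 5′ end, through which mTOR and the RNA-binding protein LARP1 control their translation. Several members have further roles: RPL5 and RPL11 bind MDM2 and restrain it when ribosome assembly fails, and 5-FU is known to disturb the processing of ribosomal RNA. The genes have many processed pseudogenes, whose sequence is nearly that of the spliced mRNA.

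The start sequences of the members on which the results turn are shown first, to let the start be read across genes that were higher and genes that were lower in MIP/5FU, with the tract and without it. Of the 80 members, 62 had an entry in the RefSeq promoter table on GRCh38.p14. Each line runs 5′ to 3′ over 30 bases, 10 before and 20 from the annotated start, and capitals mark the unbroken pyrimidines from a C at the start. RPL35A, RPS6 and RPL12 were higher in MIP/5FU, RPS27, RPS12 and RPL34 were lower, and RPLP0 and FAU were within 1.2-fold. The last 4 lack the tract at this annotated start, which need not be the start used: RPS15 and RPL10 were higher in MIP/5FU, and RPL15 and RPS29 lower.
RPL35A, chr3:197950180-197950209, plus strand: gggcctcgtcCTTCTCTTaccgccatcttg
RPS6, chr9:19380217-19380246, minus strand: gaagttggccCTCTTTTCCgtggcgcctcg
RPL12, chr9:127451387-127451416, minus strand: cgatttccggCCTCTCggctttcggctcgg
RPS27, chr1:153990752-153990781, plus strand: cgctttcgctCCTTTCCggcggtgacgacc
RPS12, chr6:132814559-132814588, plus strand: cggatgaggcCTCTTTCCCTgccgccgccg
RPL34, chr4:108620566-108620595, plus strand: cttttttcttCCTCTTCCggggacgttgtc
RPLP0, chr12:120201092-120201121, minus strand: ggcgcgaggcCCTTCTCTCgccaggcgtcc
FAU, chr11:65122115-65122144, minus strand: tcgcttcttcCTCTTTCTCgactccatctt
RPS15, chr19:1438386-1438415, plus strand: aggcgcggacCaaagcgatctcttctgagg
RPL10, chrX:154398055-154398084, plus strand: ccactctcagaaatatacgtctgtcacagt
RPL15, chr3:23916535-23916564, plus strand: tggggcctgctggaggagcttcacgcagtc
RPS29, chr14:49598691-49598720, minus strand: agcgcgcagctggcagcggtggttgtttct

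A C at the start followed by at least 4 further pyrimidines, on the gene's own strand, was found in 42 of the 62 members (67.7%). Of all 35116 promoters in the table, 4.07% held it. Of the tested members in the table it stood in 7 of 10 that were at least 1.2-fold higher, 6 of 9 that were at least 1.2-fold lower and 29 of 42 within 1.2-fold. The tract was thus present at the annotated start at like shares in members that moved in opposite directions. It stood in 9 of 12 other translation genes from a list of TOP mRNAs and in 6 of 85 mitochondrial ribosomal protein genes. A C stood at the annotated start of 46 of the 62 members. RPS29, RPL15, RPL10 and RPS27A were among those that lacked it, and the start used in these cells was not measured.

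Reads assigned to genes numbered 109693681 in MIP/5FU and 200141071 in MIP101. With 1 library per line, no difference below has a replicate check, intervals cover counting error only, and reads amplified by PCR are not independent molecules. Strand was not kept, so overlapping genes cannot be separated. In bulk RNA, fewer cells with a transcript and less of it per cell cannot be told apart. All 10 colon epithelial markers had reads in both lines, and their summed level was 8744 RPM (reads scaled to equal totals of gene reads, 1000000 per library) in MIP/5FU and 7860 RPM in MIP101, most of it from KRT8 and KRT18. At 1.2-fold, 2 of these markers were called higher in MIP/5FU and 3 lower: LGALS4 was 2.47-fold, VIL1 2.34-fold and CDH1 1.38-fold lower in MIP/5FU. The 8 hepatocyte markers summed to 10.4 and 13.1 RPM, the 7 blood markers to 4.97 and 8.34 RPM and the 8 endothelial and fibroblast markers to 17.0 and 21.1 RPM, in MIP/5FU and in MIP101. Within the last list PDGFRB had 16.3 RPM in MIP/5FU and 12.3 RPM in MIP101, and COL3A1 0.346 and 8.29 RPM, 23.6-fold lower in MIP/5FU. APOA1, TTR, HBB, CDH5, COL1A2 and DCN had 0 reads in both.

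The question was whether the ribosomal protein genes as a body, or single members, differed in level in the resistant clone. As a body they took 3.94% of gene reads in MIP/5FU (exact binomial 95% interval 3.939 to 3.947%) and 3.71% in MIP101 (3.705 to 3.710%), a ratio of 1.06. The 40S genes held 1.796% of gene reads in MIP/5FU and 1.632% in MIP101, and the 60S genes 2.15% and 2.07%. RPS2 alone held 3409 RPM in MIP/5FU and 2241 RPM in MIP101. Ratios of single genes are the share of gene reads in MIP/5FU over that in MIP101, on a log2 scale after adding 0.5 reads. The 77 members with at least 100 reads over both libraries had a median log2 ratio of 0.02, against 0.03 over all 15382 genes so tested. The quartiles were -0.16 and 0.20 over the members, and -0.22 and 0.27 over all tested genes. The members ranged from -0.50 for RPS27 to 0.76 for RPL35A.

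A gene was called where the fold reached a set size and the 95% interval excluded 1. At 2-fold, 0 members were called higher in MIP/5FU and 0 lower, where 2.53% of all tested genes were called higher and 3.09% lower. At 1.5-fold 3 members were called higher, RPL35A, RPL7A and RPS2, where 8.67% of tested genes were. No member was called lower at 1.5-fold, where 8.14% of tested genes were. At 1.2-fold 13 members (16.9%) were called higher and 9 (11.7%) lower, and 55 were within 1.2-fold. Over all tested genes, 23.3% were called higher and 21.0% lower at that size. Counted by gene reads and scaled by total gene reads, both member shares lay under this background. Scaled by the median ratio 14 members were called lower, and by TMM factors 15. No share of all genes is given for those scalings, so whether the members lay under that background too is not known. By reads of junctions between adjacent exons, which could be had for 68 members, 18 were called higher and 7 lower. The median log2 ratio was then 0.10 over the members, with 44 above 0, and -0.0038 over all genes. No share of all genes called by junction reads is given here, so whether those member counts lay under their own background is not known. Among genes with at least 10000 reads, a group that holds most of the members, 15.8% were called higher and 21.8% lower. Of the 68 members with that many reads 10 were called higher and 9 lower, at 14.7% and 13.2%.

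**Figure D1:**
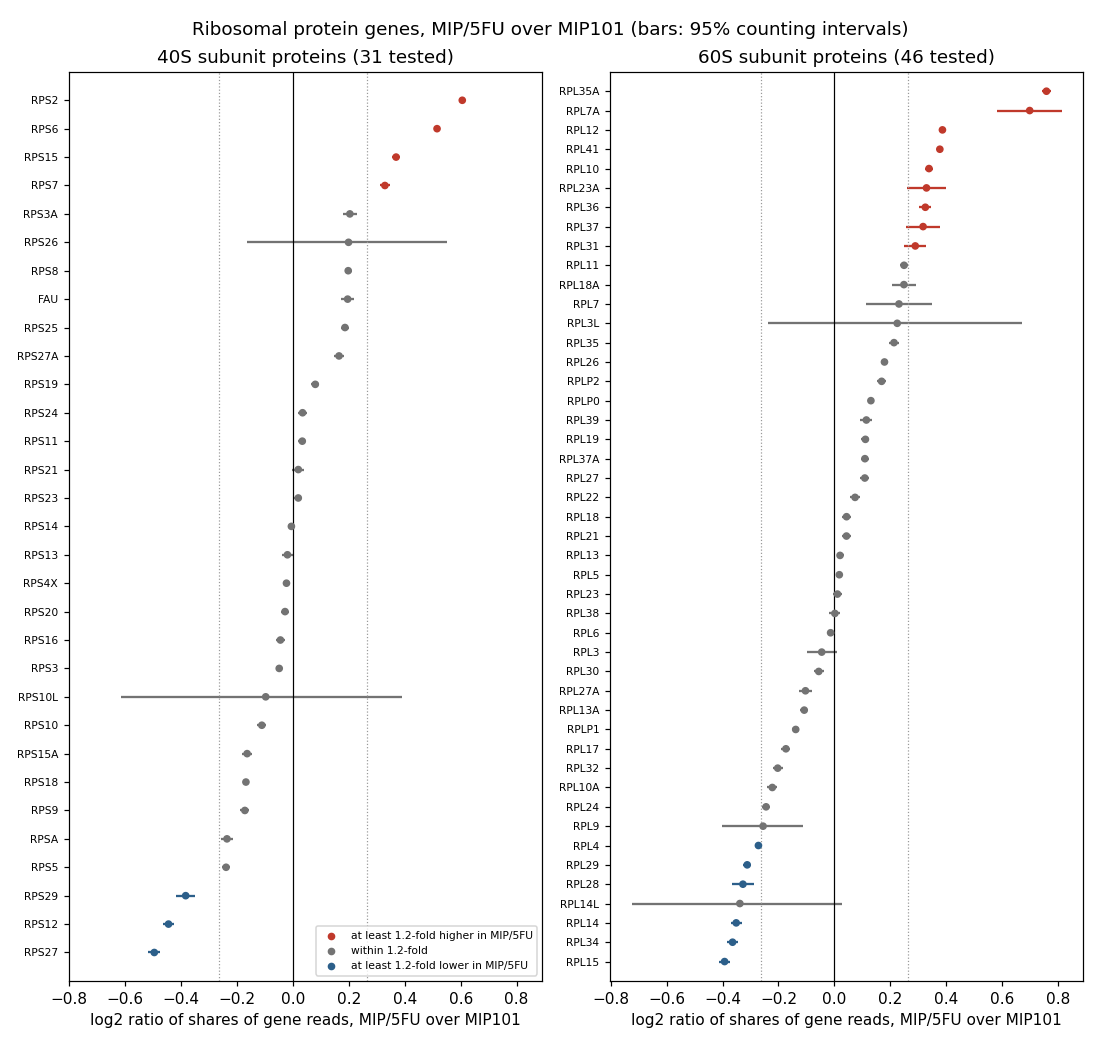
Log2 ratio of the share of gene reads, MIP/5FU over MIP101, of the 31 tested 40S and 46 tested 60S genes, with 95% counting intervals as bars and dotted lines at 1.2-fold. The points run from -0.50 (RPS27) to 0.76 (RPL35A) around medians of -0.01 for the 40S and 0.04 for the 60S genes.

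Levels of different genes were compared as the authors' normalized coverage per base, which accounts for length. RPS2, which lines the mRNA entry side of the small subunit, had the highest level in the resistant clone, 30950 in MIP/5FU and 20592 in MIP101. The row named RPL41, the shortest ribosomal protein, lies in the files on another chromosome than the RefSeq gene, so whether its reads are those of the gene is uncertain. It had 30387 in MIP/5FU and 23785 in MIP101. RPLP0, the base of the acidic P stalk that recruits elongation factors, had 14827 and 13756, RPL37A 13167 and 12402, and RPS15 12076 and 9482, in MIP/5FU and in MIP101. The top 2 genes thus traded places between the lines, and no replicate shows how far such a change lies within error. These genes were chosen by their level in MIP/5FU. In MIP101 RPS15 ranked 10 among members, and RPS18 ranked 4, with 11865 in MIP/5FU and 13533 in MIP101. In both lines 62 of the 77 tested members lay above 1000, as did 470 genes over the whole table. Of the 50 genes with the highest coverage per base, 17 were members in MIP/5FU and 15 in MIP101. The median member level was 5299 in MIP/5FU and 5558 in MIP101, against 65.0 and 65.9 over all tested genes.

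The lowest tested members were RPL3L, a muscle paralog of RPL3, with a normalized coverage of 2.36 in MIP/5FU and 2.07 in MIP101, and RPS10L, with 6.91 and 7.51. RPL14L followed with 9.15 and 11.8, RPS26, a 40S protein near the mRNA exit channel, with 17.9 and 15.5, and RPL7, an essential 60S protein, with 32.3 and 28.4. RPS10L and RPL14L are single-exon rows that hold few reads, and their intervals included 1. The order of the 77 levels was nearly that of the other line, with a Spearman rho of 0.97 across genes, which share 2 libraries and are not replicates. The tissue-restricted paralogs had few reads. RPL39L, the paralog of RPL39 used in the testis, had 5 reads in MIP/5FU and 13 in MIP101, and RPL3L had 69 and 108. RPL10L, an intronless paralog of RPL10 used in spermatogenesis, had 45 reads in MIP/5FU and 31 in MIP101. Its share was 2.64-fold higher in MIP/5FU, with a 95% interval of 1.64 to 4.33, on 37.2% of its bases covered in MIP/5FU and 18.4% in MIP101. It had too few reads to be tested, and how reads were split between it and RPL10, which it closely resembles, is uncertain.

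**Figure D2:**
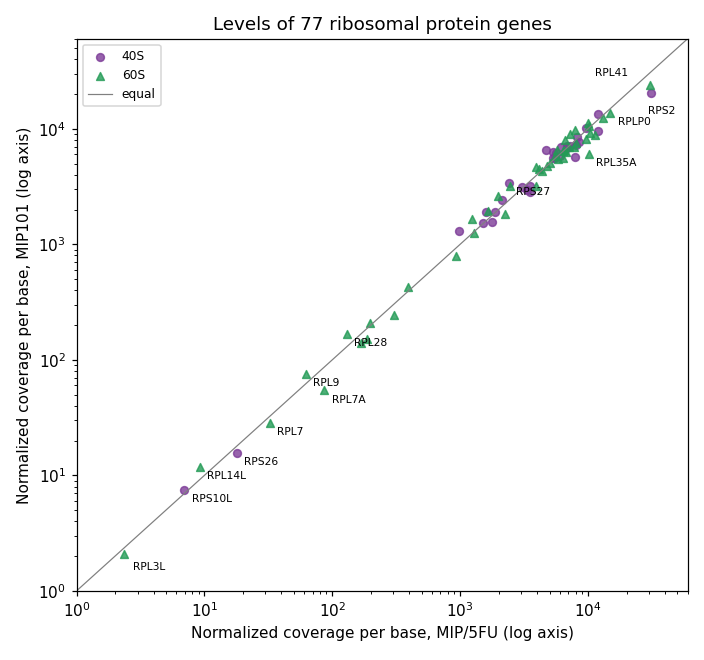
Authors' normalized coverage per base of the 77 tested members, MIP/5FU on the horizontal and MIP101 on the vertical log axis, with the line of equality. The points follow the line over 4 decades, from RPL3L near 2 to RPS2 at 30950 in MIP/5FU and 20592 in MIP101.

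Among 40S genes, 4 of 31 tested were called higher at 1.2-fold and 3 lower, and the median log2 ratio was -0.01. RPS2 had 3409 RPM in MIP/5FU and 2241 RPM in MIP101, a ratio of 1.52 (1.515 to 1.528). RPS6, the subunit protein phosphorylated by the S6 kinases downstream of mTOR, had 1831 RPM in MIP/5FU and 1281 RPM in MIP101, 1.43-fold higher in MIP/5FU (1.421 to 1.438). RPS15, which acts in nuclear export of the small subunit, had 751 and 581 RPM, a log2 ratio of 0.37. RPS27, a zinc finger protein of the small subunit, was the lowest member. It had 229 RPM in MIP/5FU and 324 RPM in MIP101, 1.41-fold lower in MIP/5FU (1.39 to 1.43). Its main junction, from exon 1 to exon 3, carried 10956 reads in MIP/5FU and 28299 in MIP101 and had a log2 ratio within 0.01 of that of the gene. By its junctions between adjacent exons alone, which leave that junction out, the log2 ratio of RPS27 was -0.14, within 1.2-fold. RPS12 had 293 RPM in MIP/5FU and 399 RPM in MIP101, 1.36-fold lower in MIP/5FU (1.34 to 1.38). RPS29, also a zinc finger protein, had 92.2 and 120 RPM, a log2 ratio of -0.38, on 35.5% of its bases covered in each line. Its exon regions 1 to 3 held reads, while exon region 4, 513 bases long and in 1 Ensembl transcript, had 0 in both lines. By its junctions between adjacent exons alone the log2 ratio of RPS29 was -0.07.

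RPSA, the laminin receptor precursor that is also a 40S protein, had 213 RPM in MIP/5FU and 250 RPM in MIP101, a log2 ratio of -0.24. RPS19, which is needed to process 18S rRNA and is the gene most often mutated in Diamond-Blackfan anemia, was near 0 at 0.08. FAU and RPS27A encode a ubiquitin-like protein and ubiquitin fused to a 40S protein. FAU had 231 RPM in MIP/5FU and 201 RPM in MIP101, and RPS27A had 410 and 366 RPM, log2 ratios of 0.20 and 0.16. None of these 4 genes reached 1.2-fold.

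Among 60S genes, 9 of 46 tested were called higher at 1.2-fold and 6 lower, and the median log2 ratio was 0.04. RPL35A, a 60S protein whose loss causes Diamond-Blackfan anemia, was the highest member. It had 575 RPM in MIP/5FU and 340 RPM in MIP101, 1.69-fold higher in MIP/5FU (1.67 to 1.71), with all of its bases covered in both. RPL7A was called 1.62-fold higher (1.498 to 1.759) on 1152 reads in MIP/5FU and 1295 in MIP101, and only 25.7% and 27.5% of its bases were covered. RPL12, part of the base of the stalk, had 846 RPM in MIP/5FU and 647 RPM in MIP101, RPL41 1662 and 1279 RPM, and RPL10, which helps join the subunits, 757 and 599 RPM. Their log2 ratios were 0.39, 0.38 and 0.34. RPL10 had reads on 54.9% of its bases in MIP/5FU and 57.8% in MIP101. Its exon region 8c, 1422 noncoding bases in 1 Ensembl transcript, had coverage worth 4 reads in MIP/5FU and 5 in MIP101.

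The lowest 60S genes were RPL15, RPL34, RPL14 and RPL14L, followed by RPL28. RPL15 had 287 RPM in MIP/5FU and 377 RPM in MIP101, 1.31-fold lower in MIP/5FU (1.30 to 1.33). RPL34 had 232 and 298 RPM, and RPL14 267 and 341 RPM, log2 ratios of -0.36 and -0.35. RPL14L, on 86 reads in MIP/5FU and 199 in MIP101, stood at -0.34 with an interval that included 0.

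The direction of RPL28 depended on which of its exons was read. Its share was 65.9 RPM in MIP/5FU and 82.7 RPM in MIP101, 1.25-fold lower in MIP/5FU (1.22 to 1.29). Most of these reads lay in its last exon region, 3839 bases long and largely noncoding, with 5072 read equivalents (coverage over mean read length) in MIP/5FU and 12934 in MIP101. Exon region 1 had 1141 read equivalents in MIP/5FU and 1859 in MIP101, and the junction of exons 1 and 2 had 1165 and 1682 reads. Exon regions 3 and 4 held 0 and 0 read equivalents in MIP/5FU and 0 and 1 in MIP101. By junctions between adjacent exons the log2 ratio of RPL28 was 0.41 and by the median of its exon regions 0.09, against -0.33 by gene reads.

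None of the 3 P stalk genes was called at 1.2-fold. RPLP0 had a log2 ratio of 0.13, RPLP1 -0.14 and RPLP2 0.17. RPLP1 had 601 RPM in MIP/5FU and 662 RPM in MIP101, while RPLP2, its partner in the stalk, had 453 and 403 RPM. The 5 listed proteins that bind MDM2 (RPL5, RPL11, RPL23, RPL26 and RPS7) had log2 ratios of 0.01 to 0.33 with a median of 0.18, and RPS7 alone was called at 1.2-fold. RPL11 had 680 RPM in MIP/5FU and 572 RPM in MIP101, a log2 ratio of 0.25, and RPL26 0.18. RPL5, which enters the ribosome together with RPL11 and 5S rRNA, had 880 and 869 RPM, a log2 ratio of 0.02 whose sign turned under 3 other scalings. Of 8 tested Diamond-Blackfan anemia genes 7 lay above 0 and the median was 0.14, with RPL35A at 0.76, RPS7 at 0.33 and RPL11 at 0.25 the farthest from 0. RPL5, RPL11 and RPS7 are in this list and in that of proteins that bind MDM2, so the medians of the lists are not separate observations. Over all tested genes 8262 of 15382 lay above 0.

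The 77 tested members lie on 20 chromosomes in the files, and their ratios were set beside those of the genes around them. For each member the median log2 ratio of the 40 nearest tested protein-coding genes on its chromosome, members left out, was taken. RPL35A, at hg18 chr3:199161449-199167116, had 0.76 where its neighbours had a median of 0.82, and 36 of those 40 lay above 0. RPS2 (chr16:1952063-1954828) had 0.61 and its neighbours 0.50, and RPS6 (chr9:19366254-19385742) had 0.52 and its neighbours 0.47. On the low side, RPS27 (chr1:152229862-152231245) had -0.50 beside -0.31, RPS12 (chr6:133177374-133180396) -0.45 beside -0.32, RPL15 (chr3:23933643-23937334) -0.39 beside -0.36, RPS29 (chr14:49113809-49122844) -0.38 beside -0.39 and RPL34 (chr4:109761182-109771086) -0.36 beside -0.37. Of the 8 highest and 8 lowest members, 14 of 16 lay among genes whose median stood on the same side of 0. The exceptions were RPL14L, at -0.34 beside 0.03, and RPL28, at -0.33 beside 0.02. RPL7A, at 0.70, had the sign of its neighbours but stood far above their median of 0.09.

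Across the 77 members, the ratio and the neighbours' median had a Pearson r of 0.77 and a Spearman rho of 0.71, as a description over genes that share 2 libraries and, in part, the same neighbours. The sign was the same for 61 of 77 members (79.2%) and for 21 of the 22 called at 1.2-fold, RPL28 being the exception. Among 6311 other abundant protein-coding genes, those of 10000 reads or more, the sign was the same for 66.8%, and r was 0.53. Taking the neighbours' median off lowered the SD over members to 0.17, against 0.26 as measured. For the other abundant genes the SD was 0.31 after this step, against 0.36 as measured. After it 3 members stood at least 1.2-fold higher and 4 at least 1.2-fold lower, in place of 13 and 9. RPL7A had the largest remainder, 0.61. The members' median and that of the other genes had the same sign on 14 of 20 chromosomes. On chromosome 15, 2 members had -0.20 and the others 0.01, and on chromosomes 1, 8, 12, 13 and 20 both medians lay within 0.07 of 0 with opposite signs. The 4 members on chromosome 9 had a median of 0.45 and its 573 other protein-coding genes 0.18. The 7 on chromosome 3 had -0.24 and the others there -0.24, although RPL35A on its distal long arm stood at 0.76. The 4 on chromosome 6 had -0.20 and the others -0.26, and RPS29 on chromosome 14 had -0.38 where the others had -0.35.

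**Figure D3:**
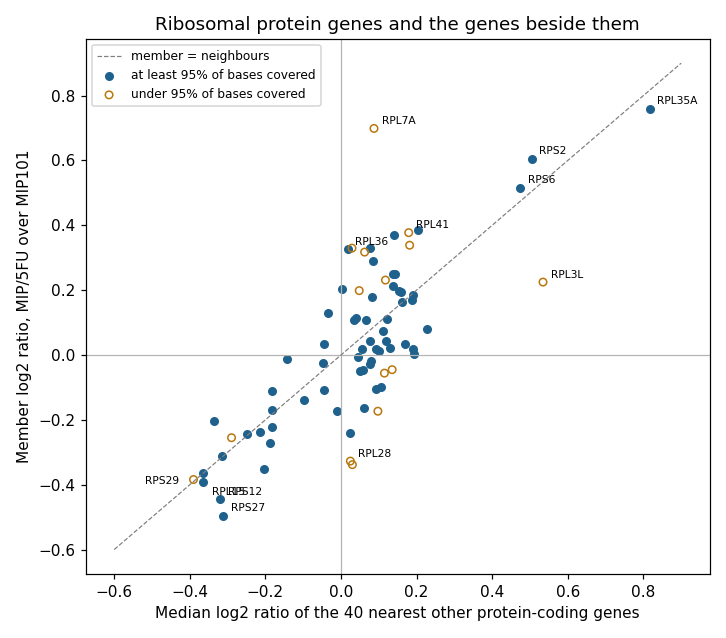
Log2 ratio of each of the 77 tested members (vertical) against the median of its 40 nearest other protein-coding genes (horizontal), with the line of equality dashed and open circles for members under 95% of bases covered in a library. RPL35A, RPS2 and RPS6 lie high and to the right, RPS27, RPS12, RPL15 and RPS29 low and to the left, and RPL7A stands 0.61 above its neighbours.

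Not every member was read along its whole length. At least 95% of bases were covered in both lines in 62 of 80 members, and 18 fell short in at least 1 line. RPS29 and RPL10 fell short mainly through a region held by 1 Ensembl transcript. Of 353 exon regions of at least 40 bases that are in every transcript of their gene, 23 in 9 genes had no reads in either line. Among them were 3 regions each in RPL7 and RPL7A, and 1 each in RPL23A and RPL28. In RPL7A the reads stood in exon region 1, with 361 read equivalents in MIP/5FU and 419 in MIP101, and exon region 3, with 660 and 713, while exon regions 6, 7 and 8 had 0 in both. RefSeq pseudogenes were counted where the symbol was the member's name followed by P and a number. By this rule 74 of the 80 members had at least 1, and there were 1900 in all. Symbols of other forms were not counted, and none could be counted for FAU. The median number was 17.5 for the 18 members short of 95% and 13.5 for the other 62. No source used here says how reads shared with such copies were assigned, so these levels and ratios are uncertain. The files place RPL41 on chromosome 22 and RPL17 on chromosome 1 in a single exon, whereas RefSeq has them on chromosomes 12 and 18, so their neighbours are those of the deposited rows, and whether their levels and ratios are those of the genes is uncertain. Without the 18 members, 8 were called higher at 1.2-fold and 7 lower.

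**Figure D4:**
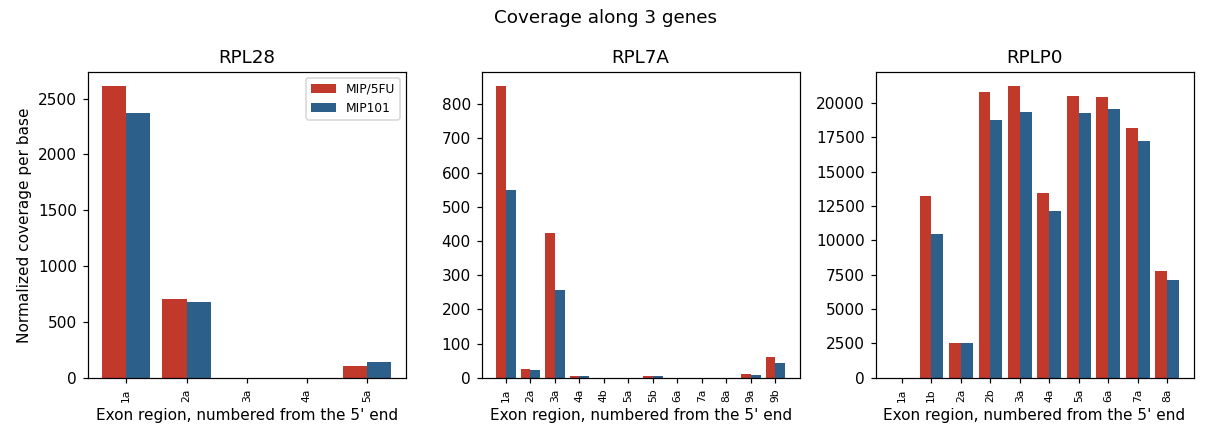
Normalized coverage per base of each exon region of RPL28, RPL7A and RPLP0, MIP/5FU beside MIP101. RPL28 and RPL7A have regions without reads in both lines, while RPLP0 has coverage of at least 2518 in MIP/5FU and 2563 in MIP101 in all regions but 1a.

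The next comparison asked whether members were spliced differently. From the log2 ratio of each junction, boundary or exon region, that of its gene was subtracted to give a splicing index. An index was called when it was at least 1 away from 0 and its counting interval, at an error rate of 0.1%, excluded 0. Of 329 tested junctions in 70 members, 1 was called higher and 1 lower in MIP/5FU. Over all 107276 tested junctions, 0.0550% were called higher and 0.0988% lower. Junctions between adjacent exons made up 95.3% of member junction reads in MIP/5FU and 94.9% in MIP101, and 0 of 286 of them were called. The median index over member junctions was 0.02, and 89.7% lay within 0.5 of 0, against 87.2% of all tested junctions.

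The junction called lower was in FAU, and its skipped exon is shown because it is the part of the message that differs. The junction joins exon 4 to exon 6, with its ends at chr11:64644823-64644854 and chr11:64645548-64645579 on hg18, and leaves out coding exon 5 of 56 bases, a length that is not a multiple of 3. The GENCODE transcript of the same gene with an internal exon of that length, on GRCh38 at chr11:65120981-65121036, minus strand, reads as follows, with the exon in capitals and 12 bases of each flanking exon in lower case.
FAU exon: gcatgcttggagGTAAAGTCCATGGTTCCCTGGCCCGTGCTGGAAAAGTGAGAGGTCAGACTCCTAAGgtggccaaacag
Skipping reads numbered 1 in MIP/5FU and 86 in MIP101. The joins of exon 5 to exon 4 and to exon 6 had 2217 and 483 reads in MIP/5FU, and 3758 and 715 in MIP101. The skipping share, over skipping reads plus the mean of both joins, was 0.074% in MIP/5FU (Clopper-Pearson 95% interval 0.0019 to 0.412%) and 3.70% in MIP101 (2.97 to 4.55%). The index was -5.18, with an interval of -16.74 to -2.36 that a single read leaves wide. With 87 reads over both lines the junction was not tested at a minimum of 100 reads, and it was called under the other alternatives. The files list 0 Ensembl transcripts and 3 ESTs for the junction. Exon region 5 itself kept its share, with 2275 read equivalents in MIP/5FU and 3671 in MIP101 and an index of -0.02.

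The junction called higher was in RPS24, a 40S protein with alternative short 3′ exons. It joins exon 4 to exon 6, at chr10:79467037-79467068 and chr10:79469968-79469999 on hg18. The small exon it reaches is 22 bases long, and is shown from the GENCODE transcript on GRCh38 (chr10:78040204-78040225, plus strand) in capitals between 4 bases of each flanking exon.
RPS24 exon: aaagTGAGCTGGAGATTGGATCACAGccga
The junction had 43 reads in MIP/5FU and 35 in MIP101, and the junction that passes from exon 4 to exon 7 had 997 and 1651. The share of exon 6 among these was 4.13% in MIP/5FU (3.01 to 5.53%) and 2.08% in MIP101 (1.45 to 2.88%). The index was 1.13 with an interval of 0.02 to 2.27, just clear of 0, and the intervals of the shares did not overlap. The call was lost at a minimum of 100 reads, at an absolute index of 2 and with the median of features as gene ratio. Exon region 6 of RPS24 had 113 read equivalents in MIP/5FU and 113 in MIP101, an index of 0.83 that was not called. The files list 1 Ensembl transcript and 433 ESTs for this junction.

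**Figure D5:**
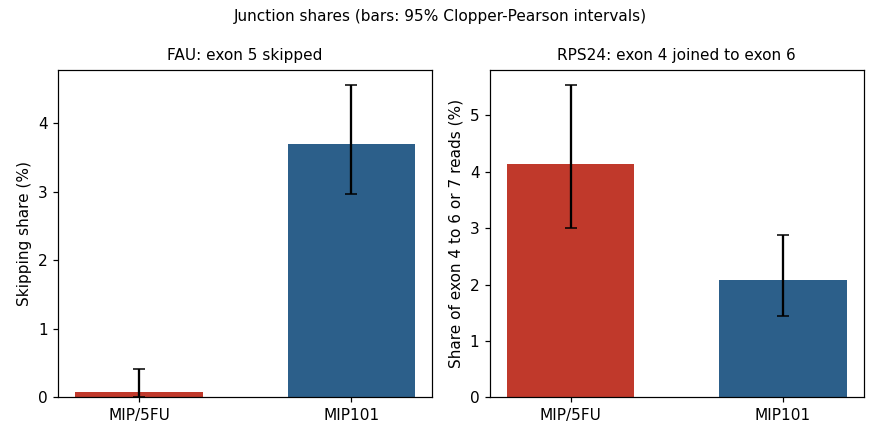
Share of FAU reads that skip exon 5 and share of RPS24 exon 4 reads that reach exon 6, among those reaching exon 6 or 7, in MIP/5FU and MIP101, with 95% Clopper-Pearson intervals. The FAU share was 0.074% and 3.70%, and the RPS24 share 4.13% and 2.08%, in MIP/5FU and in MIP101.

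Exon-intron boundary reads, which come from unspliced or alternatively spliced RNA, were 1.221% of member gene reads in MIP/5FU and 1.204% in MIP101. Over all genes they were 1.78% and 1.72%. Junction reads were 23.2% of member gene reads in MIP/5FU and 23.7% in MIP101, against 11.9% and 12.5% over all genes. Of 465 tested boundaries, 7 were called higher and 2 lower in MIP/5FU, at 1.51% and 0.43%. Over all 31842 tested boundaries 0.738% were called higher and 0.119% lower. The median index of the members' boundaries was 0.23, against 0.08 over all boundaries, and 61.1% lay within 0.5 of 0, against 66.7%.

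The boundary farthest from 0 was the acceptor of exon 6 in RPL34, with 18 reads in MIP/5FU and 6 in MIP101 (index 2.74, interval 0.63 to 5.67). Exon region 6 of that gene, an alternative noncoding end in 1 Ensembl transcript, had 1893 read equivalents in MIP/5FU and 2909 in MIP101, an index of 0.61. The junction that joins it to exon 5 had 237 and 323 reads, an index of 0.79. Neither was called. The other boundaries called higher were on few reads. RPL27 had 29 reads at the acceptor of exon 3 in MIP/5FU and 14 in MIP101, RPL6 27 and 16 at the donor of exon 2, and RPL18 32 and 21 at the donor of exon 1. At acceptors of exon 3, RPS21 had 53 reads in MIP/5FU and 38 in MIP101, RPL10 had 43 and 26, and RPL10A had 56 and 57. Their indices ran from 1.06 in RPL10A to 1.78 in RPL27. With at least 100 reads 1 boundary was called higher and 2 lower, and with the median of features as gene ratio 3 and 3.

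The boundaries called lower were both donors of exon 1. RPL24, a late-joining 60S protein, had 56 reads in MIP/5FU and 270 in MIP101 (index -1.15, -1.91 to -0.48). RPS15A had 16 and 89 reads (index -1.41, -2.95 to -0.22). The files list 2 ESTs and 0 Ensembl transcripts for each. Of 506 tested exon regions in 75 members, 0 were called in either direction, where 0.158% and 0.108% of all 139857 tested exon regions were called higher and lower. Within 0.5 of 0 lay 94.9% of the members' exon regions and 96.4% of all.

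Genes that work with the ribosomal proteins were read from lists. Of 16 other translation genes from a list of TOP mRNAs, 1 was called higher at 1.2-fold and 1 lower (6.25% each). Over all tested genes 23.3% were called higher and 21.0% lower. The median log2 ratio of the 16 genes was -0.03. EEF1A1, the elongation factor that brings aminoacyl-tRNA, had 2956 RPM in MIP/5FU and 3710 RPM in MIP101, a log2 ratio of -0.33. EEF1D, a subunit of its exchange factor, stood at 0.32, and EIF3F at -0.20. Of 49 ribosome biogenesis factors, 1 was called higher and 12 (24.5%) lower at 1.2-fold, with a median of -0.08. At 2-fold 2 were called lower and 0 higher. NOP14, a factor of small subunit maturation, had 74.6 RPM in MIP/5FU and 219 RPM in MIP101, 2.93-fold lower in MIP/5FU. NMD3, the adaptor that exports the large subunit from the nucleus, had 37.3 and 104 RPM, 2.78-fold lower. GAR1, of the H/ACA particle, stood at -0.61.

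Of 76 mitochondrial ribosomal protein genes, 6 were called higher at 1.2-fold and 17 (22.4%) lower, with a median of -0.08. MRPL24 had 18.6 RPM in MIP/5FU and 33.2 RPM in MIP101, MRPS6 44.1 and 78.6 RPM, and MRPL1 29.7 and 44.8 RPM, log2 ratios of -0.84, -0.83 and -0.59. Among 14 regulators of ribosomal protein mRNA and RPS6, 1 was called higher and 4 lower, with a median of -0.04. MYC, a transcription factor that drives ribosome production, had 175 RPM in MIP/5FU and 268 RPM in MIP101, a log2 ratio of -0.62. Its partner MAX stood at -0.46, and the S6 kinase gene RPS6KB2 at 0.51. Of 6 ribosomal protein paralogs outside the naming rule, 0 were called higher and 2 lower, RPL36AL at -0.52 and RPL7L1 at -0.35, and RPS27L stood at 0.18. The shares called lower among biogenesis factors and mitochondrial ribosomal proteins were near the 21.0% over all tested genes, whereas the shares called higher, 2.04% and 7.89%, lay under the 23.3% over all tested genes.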

How the data were processed

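RNA of both lines was sequenced, 1 library each, from random-primed cDNA with 10 PCR cycles, per the labels' protocols. Read counts per gene, junction and boundary are raw values as deposited. Coverage as deposited is the authors' signal, the bases of reads summed over a feature, with a normalized version per base that uses a single factor for each library. The percent of bases covered is also as deposited. Features follow Ensembl release 53 on hg18, per the file names and the submitters' processing notes. No source used here names the aligner. The exon region files hold no read counts, so read equivalents were computed as coverage over mean bases per read, 39.8 in MIP/5FU and 40.4 in MIP101.

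Gene ratios used all gene reads, 0.5 added reads and exact conditional binomial 95% intervals, where both libraries together held at least 100 reads. The splicing index needed 20 reads for a junction or boundary and 50 read equivalents for an exon region, where the gene had at least 200 reads in the 2 libraries together and 10 in each. Its interval, at an error rate of 0.1%, joins the exact intervals of feature and gene. All were computed over the whole tables. Depth was 109693681 gene reads in MIP/5FU and 200141071 in MIP101, and no p-value was computed. The steps were tested on simulated data. The members, lists and neighbour comparison were chosen with earlier results of these data known. Named members were the 8 highest and 8 lowest ratios, the 5 highest and 5 lowest levels in MIP/5FU, and 10 of known role. The tissue-restricted paralogs, up to 3 of each list and every called feature were also named. Alternatives were other scalings (median ratio, TMM), coverage, other minima, sizes and gene ratios. The software was R 4.3.3 with edgeR 4.0.16 for TMM, and matplotlib 3.10.9, scipy 1.17.1, pandas 2.3.3 and numpy 2.4.6 under Python 3.11.15. Transcript files were not used here. Some members of the family and the lists are not reported here.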

Additional observations from a re-analysis of the deposited data

How the results depend on the processing

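No paired analysis was possible because each line has 1 library, and for the same reason no replicate could be left out. Members called lower at 1.2-fold numbered 14 with scaling by the median ratio and 15 with TMM factors, and 12 were called higher with each. The median member ratio was then -0.01 and -0.03, and these scalings lowered every log2 ratio by 0.03 and 0.05. No share of all genes called under these scalings stands beside the member counts. Junctions between adjacent exons gave 18 members higher and 7 lower of 68, with no share of all genes by that measure beside them. Without a minimum of reads 1 member, RPL10L, was called higher at 2-fold. Chosen after seeing the data, taking off the 40 neighbours left 3 members higher and 4 lower at 1.2-fold, and leaving out members under 95% of bases covered left 8 higher. The members' share was 4.03% in MIP/5FU and 3.78% in MIP101 of protein-coding reads, and 3.95% of coverage in MIP/5FU. With at least 100 reads, 0 junctions were called higher and 0 lower, and 1 boundary was called higher and 2 lower. At an absolute index of 2, 0 junctions and 1 boundary were called higher, and 1 junction and 0 boundaries lower. With the median of features as gene ratio, 0 junctions and 3 boundaries were called higher and 1 junction and 3 boundaries lower. Of 204 values of 30 named members 5 changed sign in a called member: RPL28 at 0.41 by junctions between adjacent exons and 0.087 by the median of exon regions, and, after taking off the neighbours, RPL34 at 0.00 (0.0016), RPL35A at -0.0576 and RPS29 at 0.0061. The cause was not tested. Depth limits junction and boundary calls, most of which rest on fewer than 100 reads.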

Other observations

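Some rows that the files describe as cytosolic ribosomal proteins carry other names and were outside the naming rule. A row described as ribosomal protein L8 had 1283 RPM in MIP/5FU and 1151 RPM in MIP101, a log2 ratio of 0.16. A row named HNRNPH2 but described as L36a had 321 RPM in MIP/5FU and 304 RPM in MIP101, a log2 ratio of 0.08. A row described as L9 had 37.5 and 47.4 RPM, a log2 ratio of -0.34, beside -0.25 for RPL9 itself. The 58 noncoding rows named as ribosomal protein pseudogenes summed to 39.5 RPM in MIP/5FU and 39.3 RPM in MIP101.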
